A study of Saccharomyces cerevisiae with 6 samples.

Results

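Of the 9 genes examined, which form the inositol regulatory circuit of budding yeast and the phospholipid pathway it governs, INO2 and OPI3 were the ones whose transcripts rose in meiotic cells given an inducer, with which, per the series' design text, spliced HAC1 RNA was driven to high levels. OPI3, which encodes the methyltransferase that completes phosphatidylcholine, had a normalised level (RPKM-type value) of 3008 with inducer at 7 h, against 681 in vehicle, and INO2, which encodes an activator of the circuit, was at 160, against 60.8. INO1, the best known target of the same activator, stood at 2795 with inducer and 2808 in vehicle at that time. Each value is 1 library, and 7 h had the largest differences for OPI3 and INO2 and the smallest for INO1. At 6 h OPI3 was at 876, against 697, INO2 at 101, against 64.2, and INO1 at 2783, against 3109. Neither rise passed the test used below when the 7 h pair was left out. The genes were picked by symbol from the deposited table (INO1, INO2, INO4, OPI1, ITR1, CHO1, CHO2, OPI3 and PSD1). All 9 were found among its 6679 open reading frames (ORFs), and all passed the filter on low values.

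Ino2 and Ino4 are basic helix-loop-helix proteins that bind as a heterodimer to inositol-sensitive elements in the promoters of phospholipid genes. Opi1 represses those genes when inositol is plentiful; it is held at the endoplasmic reticulum (ER) by Scs2 and phosphatidic acid and enters the nucleus when phosphatidic acid is consumed. The pathway starts from CDP-diacylglycerol, from which Cho1 makes phosphatidylserine. Psd1 decarboxylates phosphatidylserine to phosphatidylethanolamine, and Cho2 and then Opi3 methylate that to phosphatidylcholine. Hac1, the transcription factor of the unfolded protein response, has long been linked to this circuit in growing cells, where strains without it require added inositol.

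The libraries were made from poly(A) RNA of SK1, a laboratory strain that sporulates efficiently, whose genotype is given as WT in every library, so the construct that carried HAC1 is not named. Cells in sporulation medium received at 5 h either the inducer (labelled bEST) or ethanol vehicle, and were collected at 6, 6.5 and 7 h, that is 1, 1.5 and 2 h later. A single library was sequenced for each of the 2 treatments at each of the 3 times, with no replicate at any time. Cells without the driven HAC1 that received the inducer were not analysed here, so effects of the inducer and of HAC1 cannot be told apart. The labels do not mention separate cultures, so p-values do not cover variation between cultures. They reflect no more than how the same-hour differences vary among these libraries, pooled with the variance of other ORFs.

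The values are of the RPKM type, in which reads are divided by ORF length and library size, so levels of different genes can be set side by side. The steps between low values gave 9.51, 21.7 and 9.87 megareads with inducer at 6, 6.5 and 7 h, and 13.3, 6.02 and 11.7 megareads with vehicle. On that scale 7 of the 9 genes held a whole number of reads in every library, within 0.02 read, and the other 2, OPI1 and PSD1, did not, so their reads are approximate. The fewest reads were 121 (INO2 in vehicle at 6.5 h, a counting error of 9.1%), and INO4 had the next lowest minimum, 326. HAC1 (YFL031W) had 28926, 48866 and 53257 with inducer at the 3 times, against 127, 128 and 98.4 with vehicle; a value per ORF does not separate spliced from unspliced RNA. Some stage markers differed between treatments. The summed level of 4 early meiotic genes was 3315 to 7490 with inducer and 6736 to 9051 with vehicle, ranges that overlapped, and IME1 and HOP1 fell. IME2, at 1885 to 5293, made up most of each sum. Neither IME2 nor ZIP1 was called by limma (adjusted p = 0.0769 and 0.0570). None of 5 middle genes was called, with sums of 15926 to 17487 with inducer and 16296 to 21027 with vehicle. SPS1, at 8862 to 13603, made up most of each sum. The ratio of inducer to vehicle was 0.97 (NDT80) to 1.07 (CLB1) at 6 h. At 7 h all 5 were below vehicle, from 0.63 (CLB4 and NDT80) to 0.80 (SPS1). The 2 late genes summed to 624 to 2195 with inducer and 553 to 2298 with vehicle, and both DIT1 and DIT2 rose over time. For cells outside meiosis, 3 haploid mating genes summed to 704 to 1699 with inducer and 524 to 636 with vehicle (MFA1 and BAR1 rose, FUS3 fell). MFA1, at 397 to 1573, made up most of each of these sums. The 3 mitotic G1 genes summed to 68.1 to 76.6 with inducer and 92.8 to 104 with vehicle (PCL1 fell). Over all tested ORFs, 10.0% were called higher and 8.35% lower between treatments. None of the 6 marker calls between treatments held without the 6.5 h pair (adjusted p = 0.0854 to 0.292) or without the 7 h pair (0.0914 to 0.160). PCL1 was also not called without the 6 h pair (0.0519). No marker was at 0 in any library, and the part of these shifts in the results below was not tested. In bulk RNA, fewer cells of a stage and less RNA per cell cannot be told apart.

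Changes between treatments are coefficients of a limma fit on log2(value + 1) across all 6025 ORFs with a mean value of at least 5, with time as a factor, so that each is inducer minus vehicle over the 3 same-hour pairs with its standard error (SE). Adjusted p-values are Benjamini-Hochberg over all of them, and a gene was called at adjusted p under 0.05. limma moves each gene's variance towards that of ORFs at a similar level, with 5.41 prior against 2 residual degrees of freedom. Each SE and p-value thus rests more on other ORFs than on the spread of the gene's own 3 pairs. The choice of the 9 genes was made with earlier results on these libraries known.

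**Figure D1:**
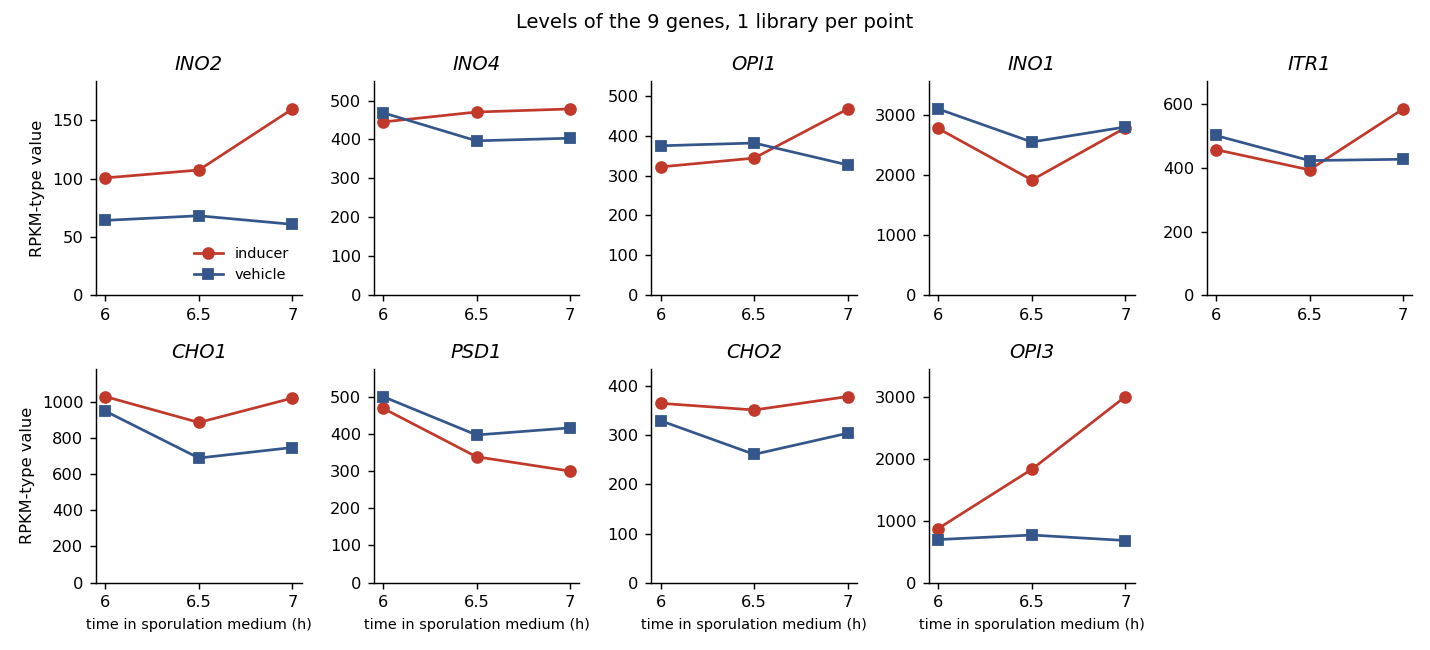
Level (RPKM-type value, linear axis from 0) of each of the 9 genes against time in sporulation medium; red circles are inducer libraries, blue squares vehicle libraries, 1 library per point and no error bars since there are no replicates. OPI3 with inducer runs from 876 to 3008 over the 3 times and INO2 from 101 to 160, above all vehicle points, while INO1 lines lie within 1922 to 3109.

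Among the regulators, the activator subunit INO2 changed and its partner did not pass the test. INO2 (YDR123C) was at 101, 107 and 160 with inducer at 6, 6.5 and 7 h, against 64.2, 68.1 and 60.8 with vehicle. All inducer libraries lay above all vehicle libraries, and the 7 h inducer library was the highest. INO2 rose by 0.89 ± 0.17 (SE, 3 pairs; adjusted p = 0.0155), 1.85-fold, and was higher in 3 of 3 pairs. Without the 7 h pair the change was 0.65 and was not called (adjusted p = 0.0774); without the 6 h or the 6.5 h pair it was 1.02 and 1.01 and was called.

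INO4 (YOL108C), which encodes its partner in the activator, was at 445, 470 and 478 with inducer, against 469, 396 and 403 with vehicle. The groups overlapped, since the 6 h vehicle library was higher than the 6 h inducer library, and the change was 0.14 ± 0.14 (adjusted p = 0.509). The repressor gene OPI1 (YHL020C) was at 322, 344 and 468 with inducer, against 375, 382 and 327 with vehicle. It was below vehicle at 6 and 6.5 h and above it at 7 h, by -0.22, -0.15 and 0.51, and the fitted change was 0.05 ± 0.17 (adjusted p = 0.867). Without the 7 h pair its sign turned, to -0.18.

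INO1 and ITR1, which supply inositol, were not called. INO1 (YJL153C), the synthase that makes inositol phosphate from glucose 6-phosphate, was at 2783, 1922 and 2795 with inducer, against 3109, 2557 and 2808 with vehicle. The 6.5 h library was the lowest in both treatments, and the groups overlapped. The change was -0.19 ± 0.15 (adjusted p = 0.403), with differences of -0.16, -0.41 and -0.01 at the 3 times. ITR1 (YDR497C), the main inositol transporter of the plasma membrane, was at 458, 394 and 586 with inducer, against 502, 423 and 427 with vehicle. Like OPI1 it lay slightly below vehicle at the first 2 times and above it at 7 h (0.45), and its fitted change of 0.07 ± 0.16 (adjusted p = 0.780) became -0.12 without the 7 h pair.

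Along the route to phosphatidylcholine, the last step rose and the earlier steps did not pass. CHO1 (YER026C), phosphatidylserine synthase, was at 1028, 885 and 1019 with inducer, against 947, 688 and 746 with vehicle, by 0.31 ± 0.14 (adjusted p = 0.171). It was higher with inducer in 3 of 3 pairs, but the 6 h vehicle library exceeded the 6.5 h inducer library. PSD1 (YNL169C), the decarboxylase of the inner mitochondrial membrane, was at 469, 338 and 300 with inducer, against 500, 397 and 416 with vehicle. It was lower in 3 of 3 pairs, with differences of -0.09, -0.23 and -0.47, but the 6 h inducer library exceeded the 2 lower vehicle libraries, and its fitted change was -0.26 ± 0.14 (adjusted p = 0.218). CHO2 (YGR157W), the first methyltransferase, was at 365, 352 and 379 with inducer, against 330, 261 and 304 with vehicle. Its groups did not overlap, yet the change was 0.30 ± 0.13 (adjusted p = 0.155).

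OPI3 (YJR073C), the enzyme of the remaining methylation steps, was at 876, 1832 and 3008 with inducer at 6, 6.5 and 7 h, against 697, 770 and 681 with vehicle. Every inducer library was above every vehicle library, and the inducer libraries differed among themselves by 3.44-fold, against 1.13-fold for vehicle. The change was 1.24 ± 0.30 (adjusted p = 0.0317), 2.36-fold. It was made of 0.33, 1.25 and 2.14 at the 3 times, so the SE holds this trend as well as noise. OPI3 was called without the 6 h pair (1.70, adjusted p = 0.00215) but not without the 6.5 h pair (1.23, adjusted p = 0.149) or the 7 h pair (0.79, adjusted p = 0.131).

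Counted together, 2 of the 9 genes were higher and 0 lower with inducer, against backgrounds of 10.0% of all tested ORFs higher and 8.35% lower. With 9 genes, this count is not read as a property of the group. Leaving out 1 pair at a time gave 0 to 2 called higher. Inducer libraries lay wholly above vehicle libraries in 3 of the 9 (INO2, CHO2 and OPI3), which was the case for 17.3% of all tested ORFs, and wholly below in 0, against 14.1%. The median change was 0.14, against -0.08 over all tested ORFs.

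**Figure D2:**
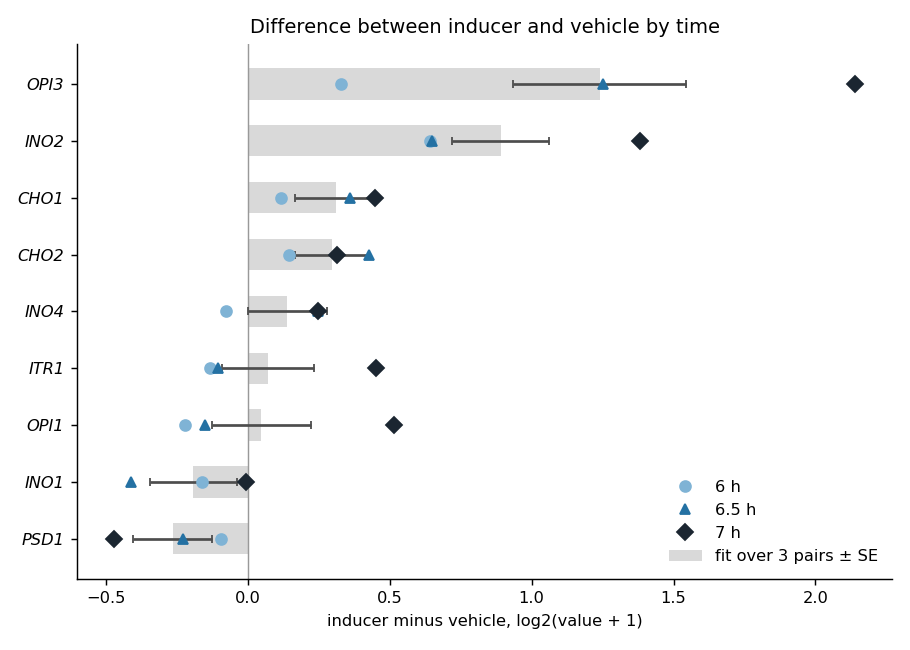
Inducer minus vehicle on the log2(value + 1) scale for each gene: grey bars give the fit over the 3 pairs with its SE, and symbols give the single pairs at 6, 6.5 and 7 h. OPI3 spreads from 0.33 to 2.14 and INO2 from 0.64 to 1.38, and the points of OPI1 and ITR1 lie on both sides of 0.

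Change over time was fitted as a slope per hour shared by both treatments. None of the 9 genes was called in either direction, against backgrounds of 0.249% higher and 0.415% lower. At unadjusted p under 0.05 limma gave OPI3 (higher) and PSD1 (lower). Of the 6025 tested ORFs, 214 were higher and 1121 lower at that threshold. The slope was 0.87 ± 0.35 per hour for OPI3 (adjusted p = 0.195) and -0.45 ± 0.17 per hour for PSD1 (adjusted p = 0.176), while the median over all tested ORFs was -0.15 per hour. The shared slope joins unlike courses for OPI3, which at 7 h stood at 3.44 times its 6 h level with inducer and at 0.977 times with vehicle. For PSD1 the same quotients were 0.640 and 0.832, and for INO2 1.59 and 0.947.

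A treatment-by-time term asked whether the slopes differed between inducer and vehicle. No ORF was called in either direction by limma, 0% of 6025, although 528 had a higher and 186 a lower slope with inducer at unadjusted p under 0.05. In simulated data this fit recovered 30.4% of slope differences of 1 per hour and 93.8% of those of 2 per hour. Most differences of 1 per hour, as well as smaller ones, could thus be missed. Among the 9 genes, OPI3, OPI1 and INO2 had an unadjusted p under 0.05. OPI3 had a slope difference of 1.81 ± 0.30 per hour (adjusted p = 0.134), above that of 99.1% of tested ORFs. It was called without the 6.5 h inducer library (1.81, adjusted p = 0.00717) or the 7 h inducer library (2.16, adjusted p = 0.0431), fits that leave 1 residual degree of freedom, and not when any other single library was left out. OPI1 and INO2 had 0.73 ± 0.29 and 0.74 ± 0.31 (adjusted p = 0.372 and 0.391). PSD1 was the only 1 of the 9 with a negative value, -0.38 ± 0.30 (adjusted p = 0.680), in this fit. Without the 7 h vehicle library the PSD1 value was 0.02. Over all tested ORFs 56.1% had a positive value, with a median of 0.07 per hour.

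KAR2, the ER Hsp70, and ERO1, the ER thiol oxidase, served as yardsticks of a known Hac1 response. KAR2 differed by 2.90, 4.25 and 4.88 at 6, 6.5 and 7 h and ERO1 by 2.53, 3.20 and 3.16, both on the log2 scale. On that scale KAR2 had the larger share of its 7 h difference at 6 h, when OPI3 was at 0.33 of its 2.14 and INO2 at 0.64 of its 1.38. As ratios of inducer to vehicle at 6 and 7 h, KAR2 was at 7.46 and 29.4 and ERO1 at 5.80 and 8.97. INO2 was at 1.57 and 2.63, and OPI3 at 1.26 and 4.42. The order of KAR2 and INO2 thus depends on the scale. ERO1 had a larger share of its 7 h value at 6 h than INO2 on both scales.

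**Figure D3:**
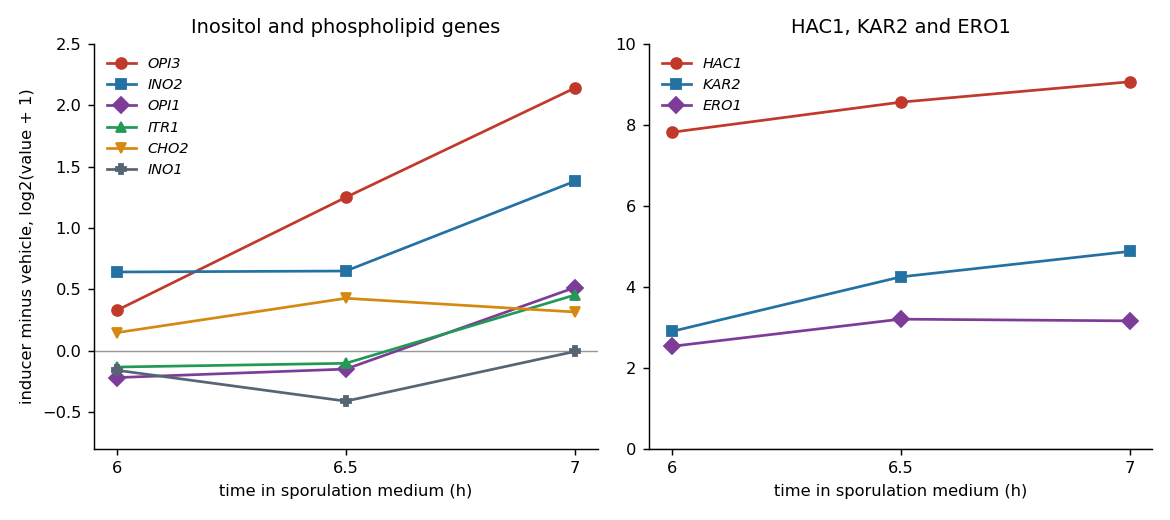
Inducer minus vehicle on the log2(value + 1) scale at 6, 6.5 and 7 h, from 1 library per treatment and time, for 6 of the 9 genes (left) and for HAC1, KAR2 and ERO1 (right, on a wider axis). OPI3 moves from 0.33 to 2.14 and INO1 stays between -0.41 and -0.01, whereas HAC1 is at 7.82 or more and KAR2 at 2.90 or more at every time.

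INO1 and INO2 marked the ends of the range of levels. INO1 was the highest of the 9 genes in 5 libraries and was exceeded by OPI3 in the 7 h inducer library. INO2 was the lowest in all 6, at a level above 31.6 to 57.3% of ORFs, whereas its partner INO4 was above 78.7 to 82.0%. CHO1 (688 to 1028) and, in vehicle, OPI3 (681 to 770) came next below INO1 and overlapped. ITR1 (394 to 586), INO4 (396 to 478), PSD1 (300 to 500) and OPI1 (322 to 468) followed with ranges that overlapped one another, and CHO2 (261 to 379) overlapped the last 2 of them.

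Ratios of 2 genes within a library do not depend on how libraries were scaled, and 6 were formed. The INO2 to INO4 ratio was 0.226, 0.228 and 0.334 with inducer at the 3 times, against 0.137, 0.172 and 0.151 with vehicle. The INO2 to OPI1 ratio was 0.313, 0.312 and 0.342 with inducer, against 0.171, 0.178 and 0.186 with vehicle. The activator transcript was thus higher relative to the repressor transcript in every inducer library than in any vehicle library. Both ratios largely restate the rise of INO2, since the fitted changes of INO4 and OPI1 were 0.14 and 0.05. The share of all gene pairs that separate in this way was not computed. Of single ORFs, 17.3% lay wholly above and 14.1% wholly below vehicle. PSD1 and CHO1 encode the enzymes that make phosphatidylethanolamine and, in the step before, phosphatidylserine. The PSD1 to CHO1 ratio was 0.456, 0.382 and 0.294 with inducer, against 0.528, 0.577 and 0.557 with vehicle, again without overlap.

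The OPI3 to CHO2 ratio, across the methyltransferases, was 2.40, 5.21 and 7.94 with inducer, against 2.11, 2.95 and 2.24 with vehicle, and the groups overlapped through the 6 h inducer library. CHO2 to CHO1 lay at 0.355 to 0.398 with inducer and 0.348 to 0.408 with vehicle. ITR1 to INO1 lay at 0.164 to 0.209 with inducer and 0.152 to 0.166 with vehicle. These are descriptions from 1 library per treatment and time, without a test.

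**Figure D4:**
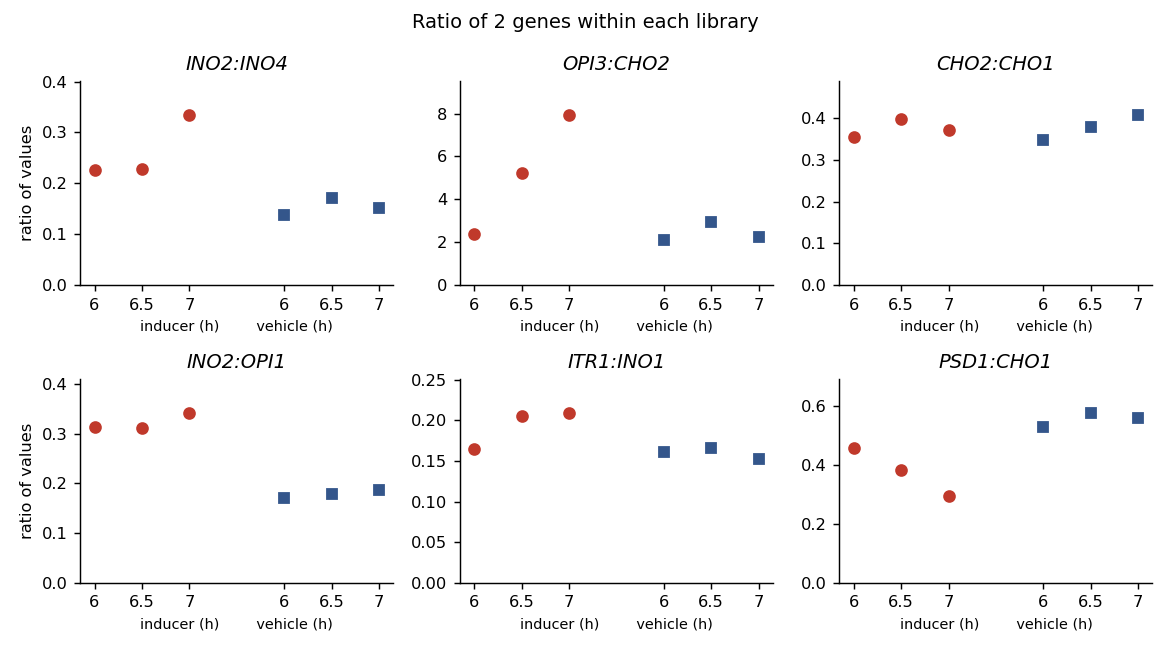
Ratio of the RPKM-type values of 2 genes in each library (linear axes from 0), with inducer libraries (red circles) left of vehicle libraries (blue squares), each at 6, 6.5 and 7 h. INO2:INO4 and INO2:OPI1 are higher and PSD1:CHO1 is lower in every inducer library, while CHO2:CHO1 lies between 0.348 and 0.408 throughout.

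Other phospholipid genes were read from a list of 21 that covers CDP-diacylglycerol synthesis, the Kennedy routes, cardiolipin and uptake. In the fit between treatments 3 rose and 1 fell, with a median change of -0.06, against 10.0% higher, 8.35% lower and a median of -0.08 over all tested ORFs. SLC1, an acyltransferase that makes phosphatidic acid, was at 184, 228 and 262 with inducer, against 106, 132 and 92.5 with vehicle. It rose by 1.02 ± 0.17 (adjusted p = 0.00918). SCT1, an acyltransferase of the step before it, was at 64.5, 49.0 and 55.8 with inducer, against 90.4, 100 and 72.5 with vehicle. It fell by 0.62 ± 0.16 (adjusted p = 0.0353). The acyltransferases ALE1 and GPT2 of the same list were at -0.001 ± 0.15 and -0.17 ± 0.12 and were not called (adjusted p = 0.995 and 0.353). Their mean levels were 1203 and 233, against 167 for SLC1 and 72.1 for SCT1.

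EPT1, the ethanolamine phosphotransferase of the Kennedy route, rose by 0.65 ± 0.12 (adjusted p = 0.0130), whereas its relative CPT1, the choline phosphotransferase, was at 0.04 ± 0.13 (adjusted p = 0.854). GEP4, the phosphatase before cardiolipin synthase, rose by 0.51 ± 0.14 (adjusted p = 0.0402). PSD2, the decarboxylase outside mitochondria, and ITR2, the minor inositol transporter, were at -0.06 and -0.17 and were not called. CKI1, the choline kinase, HNM1, the choline transporter, and INM1, an inositol monophosphatase, were at -0.40, -0.51 and 0.53 (adjusted p = 0.0601, 0.0620 and 0.0601) and, chosen here after their values were seen, were called once libraries were scaled to the same median (adjusted p = 0.0478, 0.0390 and 0.0436). Without the 6.5 h pair SLC1 was the only gene of this list called higher, and none was called lower. Without the 7 h pair none of the list was called in either direction, at changes of 0.79, -0.75, 0.69 and 0.42 for SLC1, SCT1, EPT1 and GEP4 (adjusted p = 0.0639, 0.0932, 0.0723 and 0.161). With a variance prior that did not follow the mean, SCT1 and GEP4 were not called (adjusted p = 0.0650 and 0.0730).

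Among 9 regulators of INO1, 1 rose (INO80) and 1 fell (UME6), shares close to the 10.0% higher and 8.35% lower over all tested ORFs and so not a result about the list. INO80, the ATPase of the chromatin remodelling complex named after this pathway, was at 68.4, 131 and 138 with inducer, against 51.5, 53.0 and 44.2 with vehicle, a change of 1.10 ± 0.22 (adjusted p = 0.0175). UME6, which encodes the regulator that binds URS1 sites of early meiotic genes and of INO1, was at 136, 103 and 114 with inducer, against 190, 206 and 144 with vehicle, and fell by 0.60 ± 0.15 (adjusted p = 0.0368). Neither was called without the 6.5 h pair (adjusted p = 0.0981 and 0.283) or without the 7 h pair (adjusted p = 0.113 and 0.0917), and UME6 was also not called without the time term (0.0610) or with a variance prior that did not follow the mean (0.0692). SCS2, the ER anchor of Opi1, was at -0.23 ± 0.15 (adjusted p = 0.313). None of 7 phosphoinositide kinases and phosphatases was called by limma in either direction, against the same background shares. STT4 alone had an unadjusted p under 0.05, and was lower. At that threshold 1169 of the 6025 tested ORFs were lower and 959 higher, so STT4 is not read as a result.

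The genes next to the 9 in the reference order of the S288C genome were read as well, a comparison added after the values were known. Of 18 neighbours 3 rose and 1 fell, against 10.0% higher and 8.35% lower over all tested ORFs, so the count is not read as a property of neighbours. None overlapped its partner in that annotation. MOG1 (YJR074W), which by its ORF name lies on the strand opposite to OPI3 and next to it, was at 356, 538 and 745 with inducer, against 311, 264 and 246 with vehicle. It rose by 0.94 ± 0.25 (adjusted p = 0.0389), with its largest difference at 7 h as for OPI3, and was not called without the 6.5 h or the 7 h pair (adjusted p = 0.191 and 0.169) or with the other variance prior (0.0720). NPA3, on the other side of OPI3, was at 0.08 ± 0.15. YOL107W beside INO4 and VPS35 beside INO1 rose by 0.81 ± 0.13 and 0.85 ± 0.16 (adjusted p = 0.00818 and 0.0148), and AIM17 beside OPI1 fell by 0.88 ± 0.16 (adjusted p = 0.0129), although their partners were not called. These 3 were likewise not called without the 6.5 h or the 7 h pair. Neither neighbour of INO2 was called.

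For INO1 and INO2 the 3 ORFs with the most similar course were taken by Pearson correlation of log2(value + 1) over the 6 libraries among 5685 ORFs with a mean of at least 20. The libraries share treatment, time and depth, so this is a description. Nearest to INO1 were NDE2 (r = 0.991), a mitochondrial NADH dehydrogenase, ADH2 (r = 0.986), the glucose-repressed alcohol dehydrogenase, and RPO26 (r = 0.976), an RNA polymerase subunit. ADH2 was at 4433, 1342 and 4097 with inducer, against 7953, 3411 and 4796 with vehicle, with the 6.5 h library lowest in both treatments as for INO1. Nearest to INO2 were XYL2 (r = 0.997), YPL136W (r = 0.994) and COQ8 (r = 0.986), the last a protein of coenzyme Q synthesis. XYL2 was at 136, 155 and 229 with inducer, against 89.0, 96.7 and 78.7 with vehicle.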

How the data were processed

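The authors deposited 1 table of RPKM-type values for 6 libraries; their unit was inferred from the steps between values. Bowtie2, TopHat and SAMtools were used, per the submitters' processing notes. Versions, genome build, annotation and strand handling were not given in the sources used here, so no coordinates or sequences are given and antisense reads cannot be set apart. Every column matched a sample by name (0 unmapped). Values times coding length less 60 bp were multiples of 1 constant per library for 75.8 to 80.3% of values below 40 reads (within 0.02 read), against 6.19 to 10.3% without the offset. These reads describe depth only, and a count test was not run. Lengths and newer symbols came from the S288C R64 reference, which held 5994 of 6679 ORFs.

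Analysis used log2(value + 1), a mean of at least 5 (654 ORFs left out) and limma 3.58.1 (R 4.3.3), trend on. Treatment, time and their interaction had 2, 3 and 2 residual degrees of freedom, and 5.41, 5.47 and 6.44 prior degrees of freedom. The script was tested on simulated data with noise drawn from the fitted variances. Log2 changes of 1 were recovered in 96% of cases for treatment, 90% for time and 30.4% for their interaction. Of the calls, 7.5%, 5.7% and 10.9% were false, each a larger share than the adjusted p threshold of 0.05 aims at. The simulated noise was independent between ORFs, and for treatment fewer ORFs were changed than were called in the data. The values being RPKM-type, the limma test planned for such units was used. Libraries were paired by hour, a factor the labels give. Deviations from the treatment means correlated between same-hour libraries at r = 0.32, 0.00 and 0.11 for 6, 6.5 and 7 h. Between libraries of different hours r was -0.23 to 0.22, a range that holds the same-hour values at 6.5 and 7 h. Members and lists were chosen with earlier results of these data known. A gene of the set chosen is not reported here. Named genes are the 9, HAC1, KAR2 and ERO1, called list genes with the isozymes PSD2, ITR2, EPT1 and CPT1, stage markers, and the 3 ORFs most like INO1 and INO2. Neighbours, SCS2, STT4, CKI1, HNM1, INM1, ALE1 and GPT2 were chosen after values were seen. Alternatives were other pseudocounts, filters, scalings, variance priors, time codings and omitted libraries. A planned search of promoter motifs was not run.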

Additional observations from a re-analysis of the deposited data

How the results depend on the processing

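Between treatments, members kept their direction and call in 108 of 117 alternative values; 7 calls were lost and 2 directions turned. INO2 spanned 0.65 to 1.02 and OPI3 0.79 to 1.70. Without the filter on low values, 3 genes were higher and 0 lower, with 0 members called (INO2 and OPI3 at adjusted p = 0.157 and 0.192, against 0.0155 and 0.0317); the calls of HAC1, KAR2, ERO1 and of each list, marker and neighbour gene named as called between treatments were lost there too. Marker calls were also lost for MFA1 and PCL1 with the variance prior not following the mean (adjusted p = 0.0584 and 0.0619) and for HOP1 without a time term (0.0676). With the variance prior not following the mean, 260 were lower, and without a time term 145, with 1 member (INO2) called higher in each. Leaving out 1 hour's pair gave 76 to 723 genes higher and 9 to 535 lower, with 0 to 2 members higher, OPI1 at -0.18 to 0.18 and ITR1 at -0.12 to 0.18; the low end is without the 7 h pair, and without the 6.5 h pair 196 were higher and 22 lower. Analysis without the same-hour pairing, that is without a replicate block, is the one without a time term.

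For change over time (15 higher, 25 lower), the calls were 1 and 0 without the filter, 5 and 0 with the other prior, and 9 and 2 with HAC1 left out of the totals. Scaling to the same median, which moved the median slope from -0.15 to 0.00, gave 42 higher and slopes of 0.10 for INO4, 0.083 for INO1 and 0.12 for CHO2. Quantile normalization gave 1 lower, and 0.081 for INO4 and 0.10 for CHO2. Leaving out 1 library gave 2 to 10 higher and 0 to 4 lower, with slopes of -0.025 to 0.56 for INO2, -0.16 to 0.093 for INO4, -0.12 to 0.44 for OPI1, -0.33 to 0.10 for INO1, -0.27 to 0.29 for ITR1, -0.36 to 0.037 for CHO1 and -0.11 to 0.13 for CHO2.

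For treatment by time, leaving out 1 library gave 0 to 86 genes higher and 0 to 18 lower, with 0 to 1 member (OPI3) higher. Slope differences then were -0.92 to 1.23 for INO1, -0.20 to 1.37 for ITR1, -0.25 to 0.91 for CHO1, -0.39 to 0.72 for CHO2 and -0.78 to 0.022 for PSD1. The cause was not tested, though fits that leave out a pair or library have fewer residual degrees of freedom. Counting error was at most 9.1% of a member's value (INO2) and does not cover differences between cultures.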
